A study of Mus musculus with 18 samples.

Results

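The RNAs described are 8 long noncoding RNAs of mouse mesenchymal stem cells (MSC), chosen by symbol. Malat1 and Neat1 stay in the nucleus, and Gas5, Snhg1, Snhg5, Snhg8, Snhg12 and Zfas1 are spliced host transcripts whose introns give rise to small nucleolar RNAs (snoRNAs). All 8 had a row among the 54347 genes of the deposited table, and all 8 were tested in every comparison. RNA-seq covered 6 groups of 3 libraries each, 18 in all, from marrow-derived MSC of male C57BL/6J mice. The cells were harvested from several mice to make a primary line, which the paper states was used for all its studies. The libraries of a group therefore do not stand for separate animals. In one experiment cells were left without treatment (control), given CK666, which inhibits Arp2/3, the complex from which actin branches grow, or given cytochalasin D (CytoD), which blocks growth of actin filaments. In the other, transfection was with a control siRNA (siControl, named both siRNA control and siRNA mock in the labels), with 1 siRNA against Arp4 (siArp4), or with that siRNA and given CK666 as well (siArp4+CK666). Arp4, encoded by Actl6a, is an actin-related subunit of chromatin remodelling complexes. Cells given control siRNA together with CK666 were not analysed here, so transfection and knockdown cannot be told apart wherever the response to CK666 is compared between the experiments.

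Malat1 lies in nuclear speckles, the stores of splicing factors, and Neat1 is the RNA scaffold of paraspeckles, nuclear bodies that hold RNA-binding proteins such as Nono and Sfpq. snoRNAs guide the chemical modification of ribosomal and spliceosomal RNA. Most of them are cut out of introns, and what is left of a noncoding host after splicing reaches the cytoplasm, where ribosomes meet an early stop codon and the transcript is destroyed by nonsense-mediated decay. A host transcript therefore accumulates when translation slows, and Gas5 was named for its build-up in arrested cells. The level of a host transcript reports its own synthesis and decay and says little of the snoRNAs it carries.

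The genes were placed on the GRCm38 build. Malat1 (ENSMUSG00000092341.3, chromosome 19 from 5795690 to 5802672, minus strand) and Neat1 (ENSMUSG00000092274.3, chromosome 19 from 5824708 to 5845478, minus strand) are neighbours, 22035 bases apart. Gas5 (ENSMUSG00000053332.13) lies on chromosome 1 from 161034422 to 161038539, plus strand, and Snhg1 (ENSMUSG00000108414.1) on chromosome 19 from 8723475 to 8726443, plus strand. Snhg5 (ENSMUSG00000097195.10) lies on chromosome 9 from 88521050 to 88522929, minus strand, and Snhg8 (ENSMUSG00000104960.1) on chromosome 3 from 123507552 to 123508404, minus strand. Snhg12 (ENSMUSG00000086290.9) lies on chromosome 4 from 132308623 to 132311024, plus strand, and Zfas1 (ENSMUSG00000074578.14) on chromosome 2 from 167062934 to 167065862, plus strand. The annotation placed 29 snoRNA genes in the 6 hosts on their own strand, 10 in Gas5, 8 in Snhg1, 5 in Snhg12, 3 in Zfas1, 2 in Snhg5 and 1 in Snhg8. Snord80 in Gas5 and Snora16a in Snhg12 are each entered more than once at nearly the same place. All 29 had a row in the table and 0 of them reached a mean count of 1. As 0 of them lie outside all annotated exons of their host, these rows cannot show that host counts leave out snoRNA sequence. The libraries did not record strand. By gene span Gas5 overlaps Zbtb37 on the other strand (mean estimated count 344 for Zbtb37), Zfas1 overlaps Znfx1 (475) and Malat1 overlaps Gm37376 (49.1). Reads from sequence that such a pair shares cannot be told apart by strand.

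Many snoRNA host genes start transcription at a C followed by a run of pyrimidines, a feature they share with genes of the translation machinery. The bases around the start sites of the hosts are shown so that this feature can be compared between them. They were taken from the RefSeq promoter table (GRCm38.p6), which held 7 of the 8 genes. Each sequence runs 5′ to 3′ on the gene's strand from 40 bases before the start to 20 bases from it, 60 bases in all. Capitals mark TATA lying between 40 and 20 bases before the start, and a C with at least 4 pyrimidines after it that begins within 5 bases of the start.
Gas5, first start, chr1:161034561-161034620, plus strand: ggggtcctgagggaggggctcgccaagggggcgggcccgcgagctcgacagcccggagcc
Gas5, second start, chr1:161035126-161035185, plus strand: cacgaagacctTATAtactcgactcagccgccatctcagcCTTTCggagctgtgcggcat
Snhg1, chr19:8723447-8723506, plus strand: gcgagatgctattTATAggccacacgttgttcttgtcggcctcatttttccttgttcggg
Snhg5, chr9:88522878-88522937, minus strand: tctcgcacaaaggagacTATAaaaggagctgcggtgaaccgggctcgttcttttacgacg
Snhg8, chr3:123508317-123508376, minus strand: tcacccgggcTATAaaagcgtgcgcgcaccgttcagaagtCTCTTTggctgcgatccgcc
Snhg12, chr4:132308638-132308697, plus strand: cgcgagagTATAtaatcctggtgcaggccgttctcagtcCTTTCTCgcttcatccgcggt
Zfas1, chr2:167062894-167062953, plus strand: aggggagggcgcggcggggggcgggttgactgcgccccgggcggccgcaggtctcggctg
TATA stood at 5 of the 7 host start sites, against 5.49% of all 32851 windows in the table. The pyrimidine tract stood at 3 of the 7, those of Snhg8, Snhg12 and the second start of Gas5, against 18.3% of all windows. The letters TGATGNAA, searched on both strands of the 300 bases around each start, were in 0 of the members' windows and in 3.97% of all windows. These matches describe the letters in these windows alone.

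Totals ran from 18075609 to 24733212 estimated counts per library, and mitochondrial genes held 1.30% to 3.36% of them. Actl6a was at 4.66% of its siControl mean in siArp4 and at 1.87% in siArp4+CK666. CK666 replicate 1, the siControl libraries and siArp4+CK666 replicate 1 stood apart from the rest. Between siControl replicates 1 and 2 the distance over the 1000 most variable genes was 62.3, while the other replicate pairs ranged from 13.5 to 40.1. Replicates 1 and 3 of siArp4+CK666 were 32.1 apart. A slope of each library on annotated exonic length (the log2 ratio to the mean of its own controls, per doubling of length) was -0.253 in CK666 replicate 1, and 0.329, -0.218 and -0.0114 in siControl replicates 1 to 3. The slope was largest, at 0.358, in siArp4+CK666 replicate 1. The exonic length is 853 to 3760 bases in the hosts, 6983 in Malat1 and 20771 in Neat1. For the 8 RNAs, results that rest on these libraries are also given with single libraries left out and with the length trend removed. Of 8 MSC markers 6 reached a mean of 10 in every group but siArp4+CK666, where 5 did, and Thy1 was at 0 in all groups. Ptprc, the defining marker of blood cells, had a mean of 0 in every group except siArp4+CK666, and Ibsp, a defining osteoblast marker, was at 0 in all groups.

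**Figure D1:**
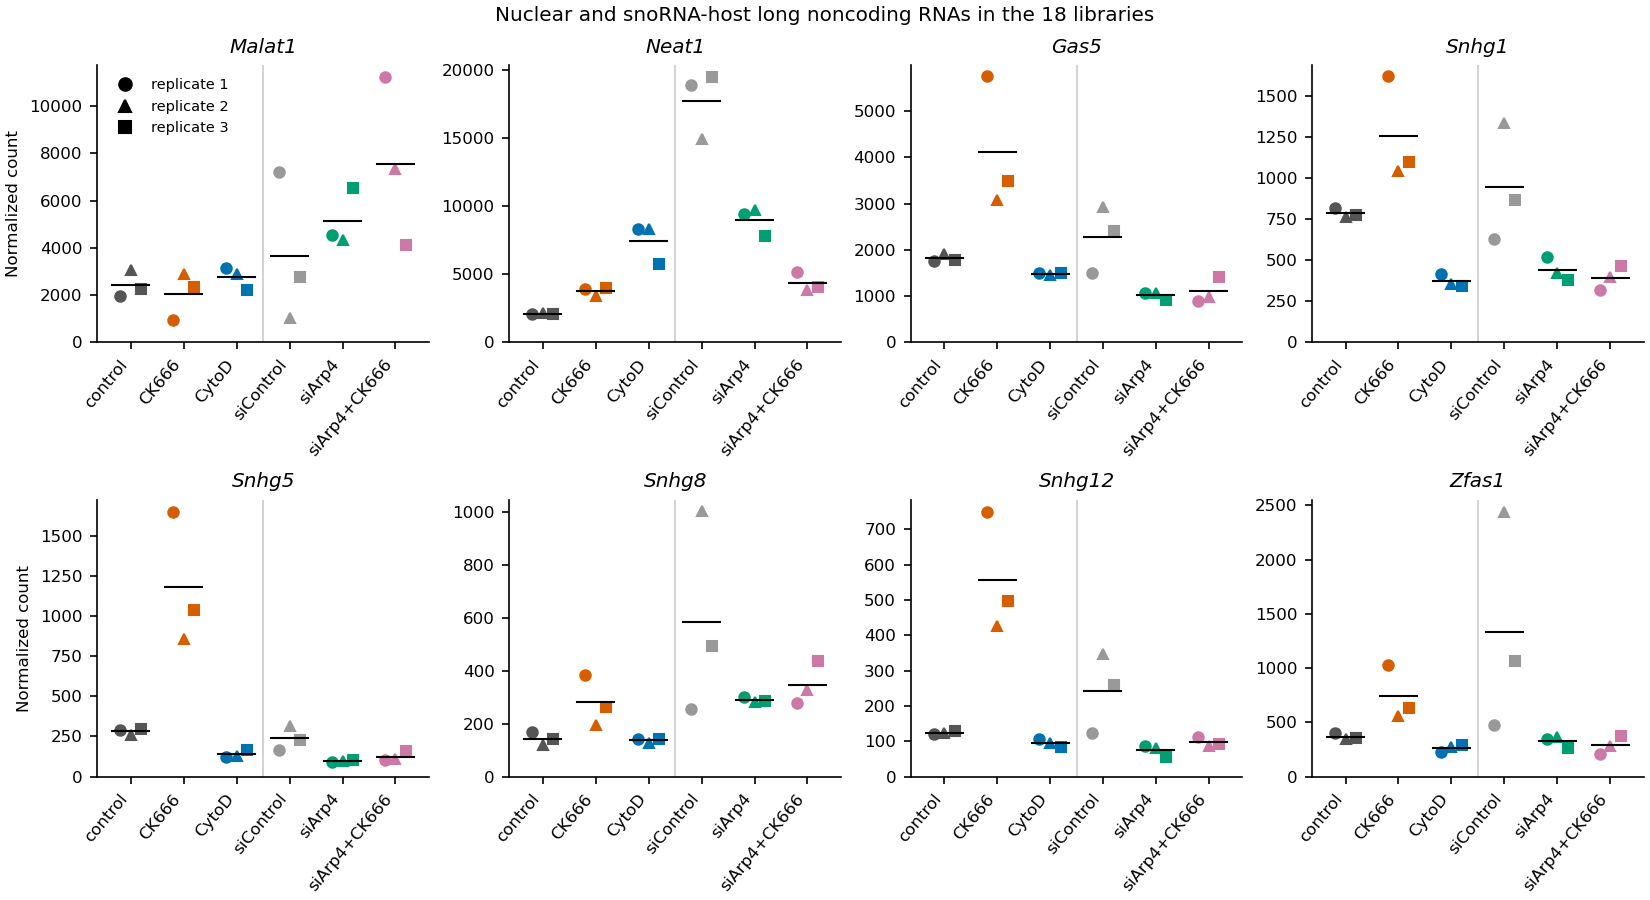
Normalized counts (vertical axes, starting at 0, with a scale of their own in each panel) of the 8 RNAs in 18 libraries, with the 6 groups along the horizontal axis, 1 symbol per replicate and a bar at the group mean. Counts are scaled within each experiment, and the grey line separates the experiments. Neat1 lies between 2049 and 2132 in control and between 14883 and 19445 in siControl, and the 6 hosts are highest in CK666 replicate 1 within their experiment and in siControl replicate 2 within theirs.

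CK666 raised 7 of the 8 RNAs, the 6 snoRNA hosts and Neat1, and Malat1 did not pass. Over all 14597 genes tested, 15.3% were higher at the same threshold, a DESeq2 adjusted p below 0.01. Snhg12 rose 4.48-fold, Snhg5 rose 4.18-fold and the other hosts rose by 1.60 to 2.26-fold. Bulk libraries cannot tell more RNA per cell from more cells of a kind. Normalized counts of Snhg12 were 119.9, 123.7 and 129.4 in control and 749.6, 426.1 and 496.6 in CK666. The CK666 libraries all lay above the control libraries, and the difference was 2.16 on the log2 scale (SE 0.23, DESeq2 adjusted p 2.37e-19). Snhg5, host of the Snord50 snoRNAs, was at 289.2, 261.0 and 299.1 in control and at 1648, 859.3 and 1040 in CK666. Its lowest CK666 library was again well above the highest control library (log2 fold change 2.06, SE 0.23, DESeq2 adjusted p 3.71e-17).

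Gas5, the host with the most snoRNA genes here, was at 1769, 1902 and 1782 in control and at 5750.3, 3089 and 3482 in CK666. The control libraries lay within a narrow band, CK666 replicate 1 stood far above its 2 partners, and the groups did not overlap (log2 fold change 1.18, SE 0.20, DESeq2 adjusted p 4.54e-08). Zfas1, named for its place beside the gene Znfx1, was at 401.4, 342.8 and 355.0 in control and at 1031, 559.6 and 629.6 in CK666 (log2 fold change 1.01, SE 0.23, DESeq2 adjusted p 5.58e-05). Snhg8, which carries the H/ACA snoRNA Snora24, was at 167.3, 119.8 and 142.8 in control and at 385.1, 194.7 and 265.0 in CK666 (0.97, SE 0.26, DESeq2 adjusted p 7.96e-04). Snhg1, host of a run of box C/D snoRNAs, changed least among the hosts, from 819.3, 759.6 and 777.2 to 1620.1, 1042 and 1097 (0.67, SE 0.18, DESeq2 adjusted p 7.59e-04). In each of the 6 hosts the highest CK666 library was replicate 1 and the groups did not overlap. Over all genes tested 24.1% were higher with groups that did not overlap.

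Neat1 was at 2070.0, 2132 and 2049 in control and at 3882, 3393 and 4001 in CK666. The 3 CK666 libraries of Neat1 lay close together, and replicate 1 did not stand out as it did for the hosts. The difference was 0.85 on the log2 scale (SE 0.15, DESeq2 adjusted p 2.16e-07). Malat1 was at 1958, 3047 and 2266 in control and at 965.7, 2886 and 2331 in CK666, and here replicate 1 was the lowest library. The groups overlapped and the log2 fold change was -0.23 (95% interval -1.05 to 0.58, DESeq2 adjusted p 0.695). With the fold minimum of the study (over 2-fold) 4 of the 8 counted as higher, Gas5, Snhg5, Snhg12 and Zfas1, against 4.89% of all genes.

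Without CK666 replicate 1 the rises were smaller, and 6 of the 7 still passed. The log2 fold change was then 1.90 for Snhg12, 1.75 for Snhg5, 0.86 for Gas5, 0.70 for Zfas1, 0.45 for Snhg1 and 0.83 for Neat1. Snhg8 stood at 0.69 with a DESeq2 adjusted p of 0.0105 and Malat1 at 0.11. Without control replicate 2 the calls of Snhg8 and Snhg1 were lost, and 4 RNAs passed with all 18 libraries fitted together, those lost being Snhg1, Snhg8 and Zfas1. With the length trend removed 7 of the 8 passed, and the hosts lay between 0.60 (Snhg1) and 2.06 (Snhg12). The summed normalized count of the 6 hosts was 6170.4 and 7010 in CK666 replicates 2 and 3, whose slopes on length were 0.0628 and -0.0313, and 3485 to 3566 in control, whose slopes lay between -0.0300 and 0.0335. Adipocyte markers also moved with CK666, 4 of 4 at a mean of at least 10 against 3 of 4 in control, with a summed normalized count of 1712 to 2570.1 against 919.0 to 929.0 and 0 of them at 0. MSC markers were lower, 4 of 6 tested, among them Ly6a (-1.06) and Pdgfrb (-0.93), with sums of 26076 to 29830.0 against 37283 to 38451. Osteoblast markers summed to 21.4 to 44.9 against 9.67 to 22.4, with Ibsp at 0. The part of these lists in the result was not tested.

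**Figure D2:**
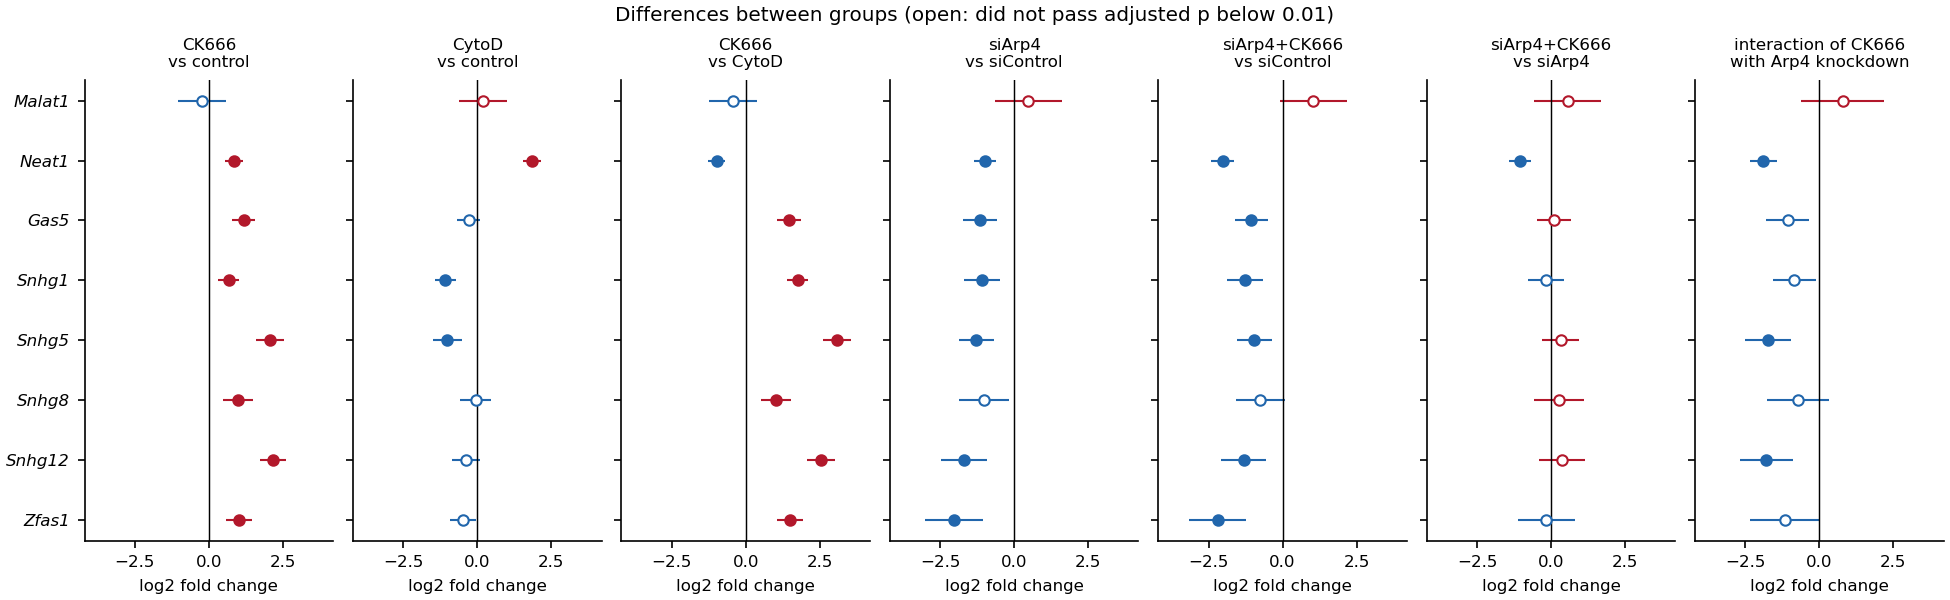
Log2 fold changes (horizontal axes) of the 8 RNAs in 6 comparisons and in the interaction, with 95% intervals as bars. Red is higher and blue is lower, and open symbols did not pass a DESeq2 adjusted p of 0.01. The hosts are to the right of 0 for CK666 against control, and to the left for siArp4 against siControl, while Neat1 changes side between those columns and Malat1 is open in all 7.

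With CytoD Neat1 rose further than it did with CK666, and Snhg1 and Snhg5 fell. As counts, 1 of 8 higher against 13.6% of 13717 genes tested and 2 of 8 lower against 16.0% were near the shares over all genes. Neat1 was at 8309.9, 8317 and 5711 in CytoD, all above its highest control library, a log2 fold change of 1.84 (SE 0.15, DESeq2 adjusted p 1.51e-31). Snhg1 was at 417.7, 353.3 and 344.1 in CytoD, below every control library (-1.08, SE 0.18, DESeq2 adjusted p 3.58e-08). Snhg5 was at 124.3, 128.7 and 168.0 (-1.01, SE 0.24, DESeq2 adjusted p 1.83e-04). For both hosts the CytoD level was close to 50% of the control mean, 47.3% for Snhg1 and 49.6% for Snhg5.

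The other 4 hosts did not pass, although 3 of them had CytoD libraries that lay below every control library, as did Snhg1 and Snhg5. Over all genes tested 30.0% were lower with groups that did not overlap. Gas5 was at 1505, 1455 and 1505 in CytoD (log2 fold change -0.29, 95% interval -0.68 to 0.11, DESeq2 adjusted p 0.265). Snhg12 was at 107.3, 95.8 and 84.5 (-0.37, 95% interval -0.85 to 0.10) and Zfas1 at 223.2, 269.1 and 293.7 (-0.48, 95% interval -0.94 to -0.03). These lower values were small beside the rises under CK666. Snhg8 overlapped control, at 142.4, 127.8 and 142.2 (-0.06, 95% interval -0.58 to 0.46), and so did Malat1, at 3164, 2906 and 2210.1 (0.19, 95% interval -0.63 to 1.0002). Without CK666 replicate 1, which enters this fit through the shared spread, 5 of the 8 passed, the further ones being Gas5 (-0.29) and Zfas1 (-0.48), both lower. Blood cell markers with a mean of at least 10 were 2 of 7 in each group of the experiment, and their summed normalized count was 173 to 199 in CytoD, 101 to 140 in CK666 and 57.5 to 97.7 in control. Ptprc was at 0 in these groups. Adipocyte markers were at 2266 to 2629.5 in CytoD, 4 of 4 at a mean of at least 10. Osteoblast markers summed to 56.7 to 64.9, with 1 of 3 tested higher and Ibsp at 0, and of 6 MSC markers tested 2 were lower and 1 higher. The part of these lists in the result was not tested.

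Set directly against each other, the drugs differed at 7 of the 8 RNAs. All 6 hosts were higher in CK666 than in CytoD, against 16.9% of 15038 genes tested, and Neat1 was lower, against 14.9%. The gap was widest for Snhg5, at 3.07 on the log2 scale (SE 0.24, DESeq2 adjusted p 1.05e-35), 8.42-fold. Snhg12 differed by 2.54 (SE 0.24), Snhg1 by 1.75 (SE 0.18), Zfas1 by 1.498 (SE 0.23), Gas5 by 1.46 (SE 0.20) and Snhg8 by 1.04 (SE 0.26), with DESeq2 adjusted p at most 3.24e-04. Neat1 was lower in CK666 by a log2 fold change of -0.99 (SE 0.15, DESeq2 adjusted p 8.62e-10). Malat1 did not pass (-0.42, 95% interval -1.23 to 0.39). Without CK666 replicate 1 the same 7 passed, with the hosts between 0.75 (Snhg8) and 2.76 (Snhg5). With the length trend removed these 7 passed too, with the hosts between 1.02 (Snhg8) and 3.04 (Snhg5).

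Knockdown of Arp4 lowered 6 of the 8 RNAs, Neat1 and every host but Snhg8, against 13.1% of 15415 genes tested that were lower. Neat1 was at 18849, 14883 and 19445 in siControl and at 9378, 9681 and 7808 in siArp4, which left 50.5% of the siControl mean. The groups were far apart for their spread (log2 fold change -0.99, SE 0.19, DESeq2 adjusted p 3.93e-06). With all libraries Zfas1 fell furthest, from 480.3, 2443 and 1068 in siControl to 349.5, 363.9 and 259.5 in siArp4. Without siControl replicate 2 its log2 fold change was -1.26, and Snhg12 fell further (-1.36). The siControl libraries of Zfas1 were spread widely and still lay above every siArp4 library (-2.04, SE 0.49, DESeq2 adjusted p 2.60e-04). Snhg12 went from 123.2, 347.1 and 259.6 to 87.6, 81.0 and 56.1 (-1.70, SE 0.39, DESeq2 adjusted p 1.13e-04). Gas5 went from 1502, 2931 and 2419 to 1075, 1079 and 907.7 (-1.16, SE 0.29, DESeq2 adjusted p 3.65e-04).

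Snhg5 was at 168.5, 316.9 and 228.8 in siControl and at 91.0, 98.3 and 105.2 in siArp4 (-1.28, SE 0.31, DESeq2 adjusted p 2.36e-04). Snhg1 was at 630.4, 1335 and 863.9 in siControl and at 522.1, 420.1 and 381.7 in siArp4 (-1.09, SE 0.31, DESeq2 adjusted p 0.00178). In these 6 RNAs no siArp4 library reached the lowest siControl library, and 21.1% of all genes tested were lower with groups that did not overlap. Snhg8 went from 255.7, 1004 and 494.1 to 302.3, 282.9 and 286.5, and because siControl replicate 1 lay below all 3 siArp4 libraries the groups overlapped (-1.01, 95% interval -1.85 to -0.16, DESeq2 adjusted p 0.0554). Malat1 ran the other way among the siControl libraries, at 7218, 1042 and 2778, and was at 4550.2, 4347 and 6519 in siArp4 (0.48, 95% interval -0.65 to 1.61, DESeq2 adjusted p 0.562).

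The spread in siControl followed the slope on length. Replicate 2, with the slope of -0.218, had the highest value of every host and the lowest of Malat1, and replicate 1, with the slope of 0.329, had the lowest of every host and the highest of Malat1. Without siControl replicate 1 all 8 RNAs passed, with Malat1 higher in siArp4 (1.42, DESeq2 adjusted p 0.00427) and Snhg8 lower (-1.37, DESeq2 adjusted p 1.05e-04). Without siControl replicate 2 the same number passed as with all libraries, 6, and the falls of the 5 hosts among them were smaller, from -0.77 for Snhg1 to -1.36 for Snhg12, while Neat1 was at -1.10. With the length trend removed 7 passed, Snhg8 among them (-0.66, DESeq2 adjusted p 0.00719), and the falls of the other hosts lay between -0.98 and -1.88. In edgeR's quasi-likelihood test 4 of the 8 passed, Snhg1 (adjusted p 0.0154) and Zfas1 (adjusted p 0.0159) being lost, and Snhg1 was also lost without siArp4 replicate 2 or 3. Adipocyte markers were lower in siArp4 as well, with 1 of 4 at a mean of at least 10 against 3 of 4 in siControl and a summed normalized count of 1162 to 1322 against 2156 to 2930.0. Of 6 MSC markers tested 1 was higher, Ly6a (1.42), and 1 lower, Cd44 (-0.63). Mitochondrial genes held 2.67% to 3.26% of counts in siArp4 and 1.30% to 2.66% in siControl. The part of these in the result was not tested.

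**Figure D3:**
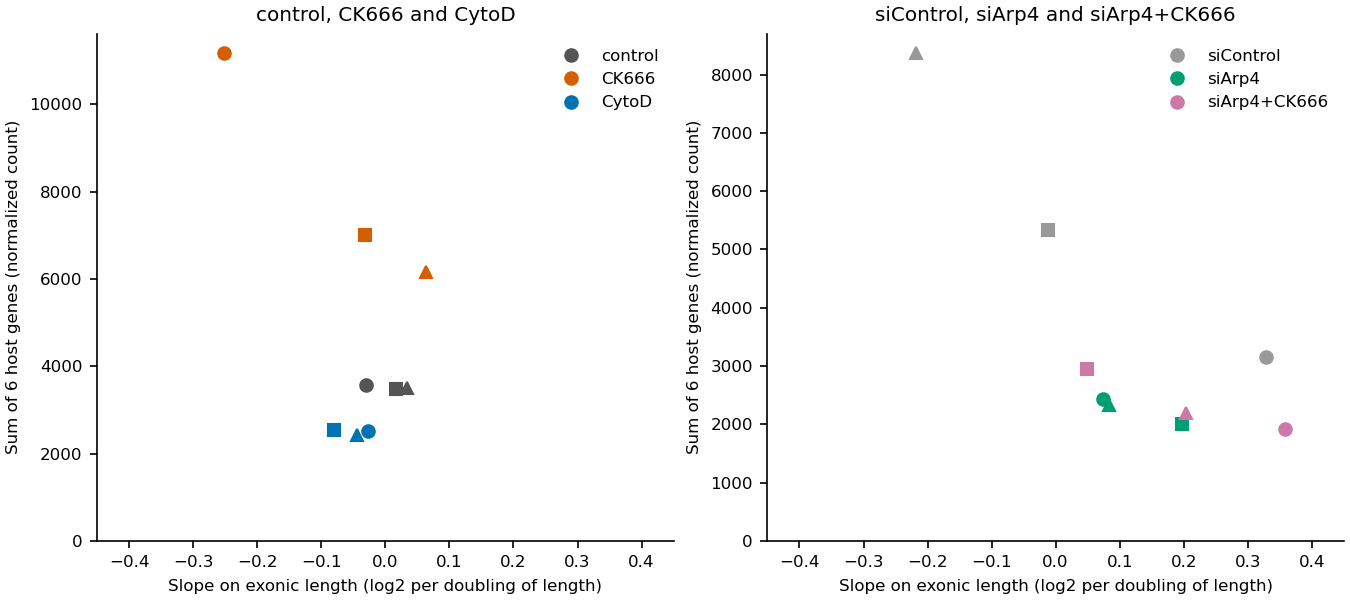
Summed normalized count of the 6 snoRNA hosts (vertical axes, starting at 0) against the slope of each library on exonic length (horizontal axes), for the first experiment on the left and the second on the right. Circles, triangles and squares are replicates 1 to 3. CK666 replicates 2 and 3 stand at 6170.4 and 7010, above the control libraries at similar slopes, and the siControl libraries descend from 8378 to 3160.3 from left to right while the siArp4 libraries lie between 1997 and 2427.

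In cells with Arp4 knocked down none of the 8 RNAs passed as higher with CK666. Against siArp4 alone the count was 0 by DESeq2 and 0 by edgeR, where 3.82% of 14098 genes tested were higher, and 0 had an unadjusted p below 0.05 in that direction. Neat1 was lower, 1 of 8 against 6.07% of genes. It was at 5147, 3871 and 4026 in siArp4+CK666, below every siArp4 library, and the difference was -1.04 on the log2 scale (SE 0.19, DESeq2 adjusted p 2.29e-06). The differences for the hosts were between -0.17 (Snhg1) and 0.38 (Snhg12), and their intervals were wide, from -0.40 to 1.16 for Snhg12 and from -0.29 to 0.94 for Snhg5. Gas5 was at 898.8, 990.1 and 1414 and Snhg5 at 101.5, 107.8 and 159.1 in siArp4+CK666, and in both the groups overlapped. Malat1 was at 11223, 7338 and 4140.5 (0.56, 95% interval -0.57 to 1.69). In siArp4+CK666 replicate 3 all hosts but Snhg12 stood highest and Malat1 stood lowest, and its slope on length was 0.0496 against 0.358 and 0.203 in the other libraries of its group. With the length trend removed 1 of the 8 RNAs passed, Neat1 as lower (-1.24), and the hosts lay between -0.13 (Snhg1) and 0.47 (Snhg12). Each of the 9 fits that left out 1 library also had 1 RNA passing.

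The interaction, the response to CK666 in knockdown cells minus that in untransfected cells, was lower for 3 of the 8, against 4.05% of 13511 genes tested. It was -1.90 for Neat1 (SE 0.23, DESeq2 adjusted p 4.70e-14), which rose with CK666 in untransfected cells and fell with it in knockdown cells. It was -1.79 for Snhg12 (SE 0.46, DESeq2 adjusted p 0.00210) and -1.74 for Snhg5 (SE 0.40, DESeq2 adjusted p 3.22e-04), the hosts with the largest rises in untransfected cells. Gas5 did not pass (-1.07, 95% interval -1.79 to -0.34, DESeq2 adjusted p 0.0344), nor did Zfas1 (-1.17), Snhg1 (-0.84), Snhg8 (-0.72) or Malat1 (0.78). Without CK666 replicate 1 Snhg12 was at -1.52 with a DESeq2 adjusted p of 0.0164, while Neat1 and Snhg5 still passed. By edgeR, too, these 2 passed and Snhg12 did not (adjusted p 0.0168). The call of Snhg12 was also lost without siArp4 replicate 1 or 2 or siArp4+CK666 replicate 2. With the length trend removed Neat1 (-2.33), Snhg12 (-1.60) and Snhg5 (-1.50) passed. Adipocyte markers were at a summed normalized count of 1162 to 1322 in siArp4 and of 3529 to 4196 in siArp4+CK666, none at 0, and blood cell markers at 30.3 to 52.9 and at 49.6 to 236. MSC markers summed to 22774 to 25255 in siArp4 and to 13456 to 18684 in siArp4+CK666, with 2 of 6 tested lower, Ly6a (-4.10) and Cd44 (-1.04), and 0 higher. The part of these marker lists in the result was not tested.

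Against siControl, siArp4+CK666 was lower for 6 RNAs, Neat1 and every host but Snhg8, where 15.8% of 15415 genes were lower. The knockdown alone was compared with the same siControl libraries. Neat1 stood at 24.5% of siControl (-2.03, SE 0.19, DESeq2 adjusted p 7.96e-24) and Zfas1 at 21.8% (-2.19, SE 0.49, DESeq2 adjusted p 5.64e-05). Snhg12 was at -1.32, Snhg1 at -1.26, Gas5 at -1.05 and Snhg5 at -0.95 (DESeq2 adjusted p 0.00667). Snhg8 (-0.75) and Malat1 (1.04, DESeq2 adjusted p 0.144) did not pass. In edgeR's quasi-likelihood test 3 passed, with Gas5, Snhg5 and Snhg12 lost, and these calls were also lost as single libraries were left out. Snhg5 passed in none of these fits but those without siControl replicate 1 or siArp4+CK666 replicate 3, Snhg12 was lost without siControl replicate 2 or 3 or siArp4+CK666 replicate 2 or 3, and Gas5 without siControl replicate 3 or siArp4+CK666 replicate 1 or 2. Without siControl replicate 1 all 8 passed, Malat1 as higher (1.99) and Snhg8 as lower (-1.10), and 3 passed without siControl replicate 3 or without siArp4+CK666 replicate 2. With the length trend removed 6 passed, with Neat1 at -2.44 and Snhg5 at -0.63. Of 6 MSC markers tested 4 were lower and 0 higher, among them Ly6a (-2.69) and Cd44 (-1.68), and 0 of 4 adipocyte markers passed. The 1 endothelial marker tested was higher (2.67). The part of these lists in the result was not tested.

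**Figure D4:**
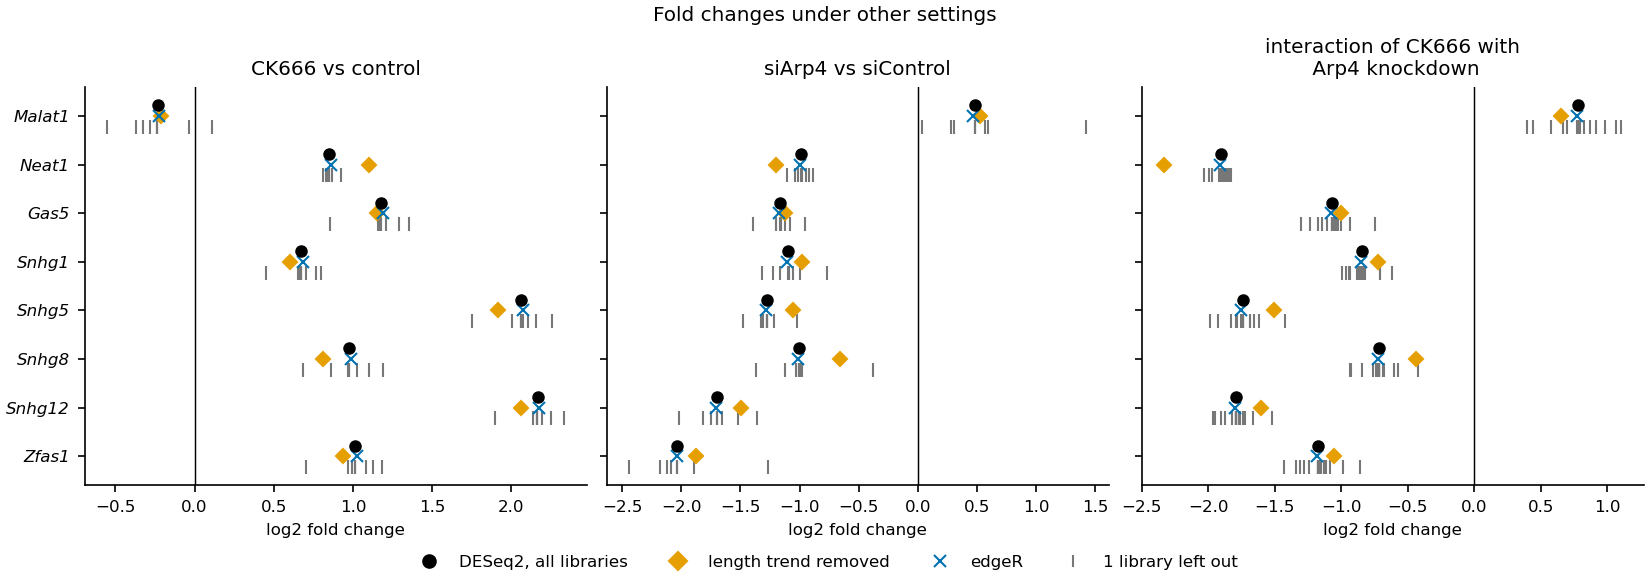
Log2 fold changes (horizontal axes) of the 8 RNAs for CK666 against control, siArp4 against siControl and the interaction. Black circles are DESeq2 on all libraries, orange diamonds the same with the length trend removed, blue crosses edgeR, and grey ticks the fits that leave out 1 library. Host ticks stay on the same side of 0 in all 3 panels, and Malat1 crosses 0 for CK666 against control, from -0.55 to 0.11.

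Placed on a scale shared by the 18 libraries, the levels of each RNA could be ordered over the 6 groups, though no test was made across the experiments, which differ in transfection and handling. For Neat1 the order was siControl (17853 ± 2240.3, SD, n = 3), siArp4 (9181 ± 1030.0), CytoD (7271 ± 1470), siArp4+CK666 (4395 ± 640), CK666 (3622 ± 305) and control (2028 ± 43.7). Of its neighbours only siArp4 and CytoD overlapped, and the mean of siControl was 8.80 times that of control, a gap that cannot be told apart from the difference between experiments. The ratio of siControl to control was 4.26 for Snhg8, 3.80 for Zfas1 and 2.04 for Snhg12, and between 0.875 and 1.56 for the other members. CK666 ranked first for Gas5, Snhg1, Snhg5 and Snhg12, and for Snhg5 (1139 ± 394) and Snhg12 (537 ± 162) it did not overlap the next group. siControl ranked first for Snhg8 (593.8 ± 398) and Zfas1 (1353 ± 1046), with wide spreads that overlapped the next group. For Malat1, from siArp4+CK666 (7621 ± 3460) down to CK666 (1988 ± 957), every neighbour overlapped the next.

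Patterns were also compared over the 18 libraries, each as its log2 difference from the mean of its own controls. These values share library size, length slope and treatment, and are a description with no test. The 15 pairs among the 6 hosts had Pearson's r from 0.828 to 0.968 (median 0.906), highest for Gas5 with Snhg12. Malat1 was opposed to each host, at -0.662 with Snhg5 to -0.909 with Zfas1, and Neat1 was looser, from 0.322 with Snhg5 to 0.623 with Zfas1. Among 10318 genes the most alike to Gas5 were 1110038B12Rik (r 0.985), annotated as a processed transcript, and Katna1 (0.975). Zfas1 was closest to Imp3 (0.989), a protein of the small ribosomal subunit processome. For Snhg8 they were Polr1c (0.984), a subunit of RNA polymerases I and III, and Aimp1 (0.977), and for Snhg1 Psmg1 (0.976) and Fkbp4 (0.961). Snhg5 was closest to Tsg101 (0.977) and Setd3 (0.971), and Snhg12 to Pck2 (0.970), the mitochondrial phosphoenolpyruvate carboxykinase, and Gas5 (0.968). For Neat1 they were Hsd3b7 (0.964) and Spry1 (0.957), and for Malat1 Glg1 (0.983) and Cpne3 (0.978).

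Other snoRNA hosts were looked up by list. Of 15 further noncoding hosts 13 had a row and 11 were tested in untransfected cells. With CK666 4 of the 11 were higher, against 15.3% of all genes. Among them were Epb41l4aos (log2 fold change 1.38, SE 0.25), Snhg6 (1.21, SE 0.19) and Snhg15 (0.91, SE 0.25), and the median over the list was 0.57 against 0.01 over all genes. With CytoD 5 were lower, against 16.0% of all genes, among them Dancr (-1.13), Snhg16 (-1.09) and Snhg17 (-0.98), and 1 was higher. By edgeR 3 of the 11 passed with CytoD, and 2 or 3 passed without any 1 of the control libraries or CytoD replicates 2 and 3. With Arp4 knocked down 2 of 12 were lower, Snhg15 (-1.35) and Snhg3 (-0.96), against 13.1% of all genes, and 0 passed by edgeR. Of 27 protein-coding hosts, mostly ribosomal proteins and translation factors, 4 were higher with CK666, among them Rpl12 (1.001), Rpl13a (0.53) and Eef2 (0.43), near the 15.3% of all genes, and the median of the list was 0.35. That count moved with several libraries, to 16 without CK666 replicate 2 and to 2 without control replicate 2, control replicate 3 or CK666 replicate 3. In siArp4 9 of the 27 were lower, against 13.1% of all genes, among them Rpl27a (-1.62), Rps20 (-1.59) and Eef1b2 (-1.51). In edgeR 1 passed, 20 passed without siControl replicate 1, and 2 passed without siControl replicate 3 or any siArp4 library.

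The messenger RNAs of the proteins that bind snoRNAs were lower with CytoD. Of 8 core proteins of box C/D and H/ACA particles 7 fell with CytoD (5 in edgeR), against 16.0% of all genes. The largest falls were in Dkc1, the pseudouridine synthase (log2 fold change -2.11, SE 0.13), Nop58 (-1.69, SE 0.12) and Nop56 (-1.61, SE 0.11), which carry snoRNAs in their own introns as well. With CK666 0 of the 8 passed by DESeq2 and 0 by edgeR, with 2 at an unadjusted p below 0.05, and in siArp4 these counts were 0, 0 and 0. Few decay factors passed with CK666, no larger a share than of all genes (14.7% lower and 15.3% higher). Of 17, 2 were lower, Upf1, the helicase of nonsense-mediated decay (-0.75, SE 0.09), and Upf3b (-0.73, SE 0.14), and 1 was higher, Upf3a (0.56, SE 0.18). With CytoD 7 of the 17 were lower, against 16.0% of all genes, or 4 without control replicate 1, CytoD replicate 1 or CytoD replicate 2, and in siArp4 Magoh was lower (-1.16) and Smg6 higher (0.67).

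A list of translation stress transcripts was looked up as well, though translation was not measured and any link to the hosts was not tested. Of 12, 10 were higher with CK666, against 15.3% of all genes, and the median log2 fold change was 2.30. The largest rises were in Trib3 (4.66, SE 0.17), Ddit3 (4.32, SE 0.20) and Atf3 (4.25, SE 0.23), targets or partners of the stress factor Atf4. With CytoD 4 of the 12 were lower, against 16.0% of all genes, led by Chac1 (-2.15, SE 0.20) and Trib3 (-2.05, SE 0.19). Higher with CytoD was 1 of the 12, against 13.6%. In knockdown cells CK666 raised 6 of the 12, against 3.82% of all genes, and 0 of the 6 hosts. Atf3 was at 3.51 (SE 0.23), Trib3 at 2.67 (SE 0.32) and Chac1 at 1.62 (SE 0.27). Against siControl 5 of the 6 hosts were lower in siArp4 and in siArp4+CK666. Of the 12 transcripts 4 were higher and 1 lower in siArp4, and 6 were higher and 0 lower in siArp4+CK666. Of 15415 genes tested 1841 and 2159 were higher. In siArp4 2 to 8 of the 12 passed as single libraries were left out. Against 4.05% of genes tested, the interaction was lower for 5 of the 12, among them Gadd45a (-3.40) and Ddit3 (-2.70).

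The messenger RNAs of paraspeckle proteins were lower with both drugs, while Neat1 was higher. All 9 on the list were lower with CK666, against 14.7% of genes tested, led by Tardbp (log2 fold change -1.53, SE 0.11), Rbm14 (-0.97, SE 0.23) and Sfpq (-0.71, SE 0.09). With CytoD 8 of the 9 were lower, Tardbp again first (-1.05, SE 0.11), though 5 passed in edgeR, and 4 or 5 without control replicate 1 or any 1 CytoD library. In siArp4 1 of the 9 was lower, Rbm14 (-0.87), and their median was -0.05. The interaction was higher for 6 of the 9, against 3.75% of genes tested, with Sfpq at 1.15 (SE 0.10), opposite in sign to that of Neat1, and 2 of the 9 passed in edgeR. Messenger RNAs of nuclear speckle proteins were lower for 8 of 9 with CK666 (Srsf2 -1.26, SE 0.12) and 7 of 9 with CytoD (Srsf7 -1.05, SE 0.15), while Malat1 passed in neither. Over all genes tested 14.7% were lower with CK666 and 16.0% with CytoD. Other nuclear long noncoding RNAs were looked up as well. Of 11 tested, 1 was higher with CK666, Pvt1 (1.27, SE 0.22), against 15.3% of all genes, and 1 was lower with CytoD, against 16.0%. In siArp4 3 were higher, among them Norad (1.65, SE 0.19) and Mir22hg (0.70, SE 0.21), where 1841 of 15415 genes tested were higher. Of the 3, 1 passed in edgeR or without siArp4 replicate 1 or 2.

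**Figure D5:**
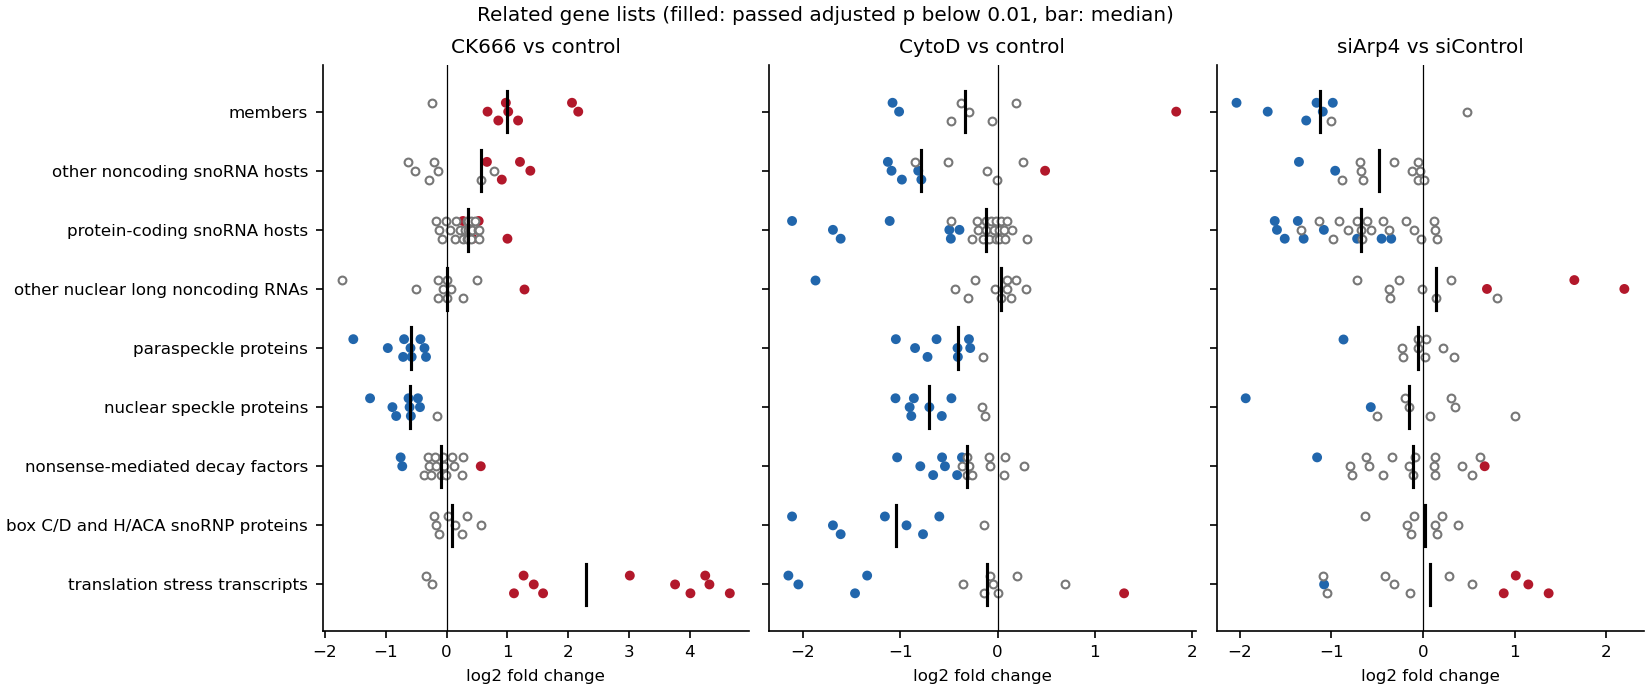
Log2 fold changes (horizontal axes) of single genes in the 8 members and 8 related lists, for CK666 and CytoD against control and siArp4 against siControl. Filled points passed a DESeq2 adjusted p of 0.01 (red higher, blue lower), open points did not, and the black bar is the median. With CK666 the medians are 0.99 for the members and 2.30 for the translation stress transcripts, with paraspeckle and nuclear speckle proteins at -0.59 and -0.61.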

How the data were processed

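RNA was sequenced in 18 libraries, 3 per group, numbered by the labels and prepared apart, so that p-values measure the spread between these preparations. The authors made the deposited estimated counts with Salmon 1.2.1 (per the labels' processing notes) on GENCODE vM25 transcripts of GRCm38. How transcripts were summed to genes, and whether poly(A) RNA was selected, is not given in the sources used here. Reads were unstranded and those shared by overlapping genes are split by the estimate. Counts were rounded and tested with DESeq2 1.42.0 (R 4.3.3, Wald test, two-sided) on all genes of an experiment (9 libraries) or, for the interaction, of all 18. A gene passed at an adjusted p below 0.01, and a fold over 2 was counted beside it. Normalized counts use the size factors of each experiment. Precision rests on 3 libraries per group, and library totals were similar.

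Alternatives were edgeR 4.0.16 (quasi-likelihood test), TMM size factors, a count minimum of 10 in 3 libraries, removal of the length trend (a smooth fit on annotated exonic length), a replicate block, other sets of libraries in the fit, and leaving out each library. The scripts were tested on simulated data. Replicate numbers did not pair the libraries. Symbols and coordinates came from GENCODE vM21 and matched 54094 of 54347 gene identifiers. All 8 members were named in each comparison, with at most 3 genes per related list (those that passed with the largest change at a mean normalized count of at least 50) and the 2 genes most alike to each member at a mean of at least 100, by Pearson's r of log2(normalized count + 1). One of these genes is not reported here. Members and lists were chosen with earlier results of these data known.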

Additional observations from a re-analysis of the deposited data

Results flagged for a closer look

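The response to CK666 differed between knockdown and untransfected cells for 3 of the 8 RNAs, by the interaction in DESeq2 over 18 libraries. The difference was -1.90 on the log2 scale for Neat1, -1.79 for Snhg12 and -1.74 for Snhg5. The knockdown cells had also been transfected, and the parts of transfection and knockdown cannot be told apart. CK666 replicate 1, which had the highest level of each host in its experiment, enters these values, and without it they were -1.88 for Neat1, -1.52 for Snhg12 and -1.42 for Snhg5. Snhg12 then no longer passed (DESeq2 adjusted p 0.0164), nor did it by edgeR (adjusted p 0.0168) or without siArp4 replicate 1 or 2 or siArp4+CK666 replicate 2.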

How the results depend on the processing

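Of 960 alternative values of the 56 fold changes of the 8 RNAs, 956 kept their direction and 909 kept both direction and call. The 4 that turned came from leaving out 1 library, for fold changes that had not passed. These ran from -0.55 to 0.11 for Malat1 with CK666 against control, from -0.18 to 0.065 for Snhg8 with CytoD, and, for siArp4+CK666 against siArp4, from -0.11 to 0.24 for Gas5 and from -0.40 to 0.028 for Zfas1. With all 18 libraries fitted together 4 RNAs passed for CK666 against control in place of 7. For CytoD against control 5 passed in place of 3 when only these groups were fitted, and 3 to 5 as single libraries were left out. For siArp4+CK666 against siControl 3 passed in place of 6 by edgeR, 3 when only these groups were fitted, and 3 to 8 as single libraries were left out. The cause was not tested. Replicate numbers did not pair the libraries, since 1 of 9 same-number correlations was over 0.1 in the first experiment and 3 of 9 in the second. With a replicate block, run on genes that reached a count of 10 in 3 or more libraries (chosen after seeing the data), 7, 3, 7, 6, 6, 1 and 3 RNAs passed in the comparisons in the order of the plot of fold changes, as without it. Over all genes, edgeR called 2462 in place of 3867 for siArp4 against siControl, 612 in place of 1395 for siArp4+CK666 against siArp4 and 520 in place of 1054 for the interaction. For siArp4+CK666 against siArp4 2318 passed when only these groups were fitted and as few as 774 without 1 library, and 1610 passed for the interaction without siControl replicate 2. Counts of passing genes, lists included, stayed within 1.5 times in 864 of 1080 alternatives. With 3 libraries per group the 95% intervals of the hosts for siArp4+CK666 against siArp4 reached from -1.13 (Zfas1) to 1.16 (Snhg12), and ran from -0.46 to 0.68 for Gas5.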
